A study of Homo sapiens with 38 samples.

Results

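The entries described here are 199 less abundant cytosolic tRNA features in small RNA libraries of the human acute myeloid leukaemia cell lines KG1a and HL60 and of the vesicles they shed. They are the features typed as tRNA in the count table whose counts, summed over all 38 libraries, reached at least 5000 and stayed under 100000. They were therefore chosen by their measured counts, and they make up 199 of 558 tRNA-typed entries in a table of 90127 features. Another 146 tRNA entries held 100000 counts or more and 213 held fewer than 5000. The 3 entries just inside the lower bound had 5569, 5587 and 5609 counts and the 3 just outside it 4822, 4855 and 4885. At the upper bound the 3 just inside had 96211, 96903 and 99559 counts and the 3 just outside 102302, 104020 and 108000. The 199 entries together held 6.20% of all tRNA counts and 2.26% of all counts, against 93.6% of tRNA counts in the abundant entries, and the median summed count was 31504.

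Transfer RNAs are the adaptors of translation: each carries an amino acid to the ribosome and reads a codon through its anticodon. RNA polymerase III transcribes them, RNase P and RNase Z trim their ends, and cleavage of the mature molecule releases tRNA fragments, which are common in small RNA libraries and in extracellular vesicles. In a human genome many gene copies code for tRNAs of near-identical sequence, so a short read can match several entries. GlycoRNA is small RNA that carries sialylated N-glycans, and tRNA is among the classes described for it.

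The study grew unmodified (WT) KG1a and HL60 cells in medium with 10% serum, and collected large (lEV) and small (sEV) extracellular vesicles from cells kept without serum for 2 days, so culture and source cannot be told apart in comparisons of vesicles with cells. Every source gave libraries of total RNA, the input, and libraries made after rPAL, which oxidises the sialic acid of glycans with periodate and ligates the aldehyde to biotin, so that RNA with sialylated glycans is pulled down. The 12 groups have n = 4 libraries in KG1a cells (total and rPAL) and n = 3 elsewhere. Nothing in the labels says whether replicates came from different cultures, and the p-values then cover only the spread between these libraries, which may be technical. The depth ran from 5498168 to 14892937 counts in total RNA and from 2380745 to 15532758 after rPAL. Of the line markers, CD34, a surface protein of primitive blood cells, had 143 counts in KG1a cell total RNA and 3 in HL60, while MPO, a granule enzyme of myeloid cells, had 107 in HL60 and 1 in KG1a. In KG1a sEV rPAL, however, CD34 had 3 counts and MPO 32.

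All 199 entries carry RNAcentral identifiers, and the files do not pair these with a gene symbol, an isotype, an anticodon or a sequence. They are therefore described by identifier and no sequence is printed. Many do not give separate measurements. In 65 of the 199 entries the ratio to another member stayed nearly fixed, which means an SD of the log2 ratio of at most 0.2 over at least 10 libraries where both had 100 counts or more. These 65 form 20 sets, the largest of 10, 9 and 6 entries, and 1 pair had counts within 0.2 on the log2 scale in every library. With each set counted as 1, the 199 entries come to 154 units. No entry stood at a near-fixed ratio to an abundant tRNA entry or to any of the 22 mitochondrial tRNA genes. The treatment of reads that match several entries is not given in the sources used here, so entries of a set may share reads. The ratio was not judged in libraries where either entry had fewer than 100 counts, and fold changes and calls could differ within a set. In 1 set of 3, log2 differences of KG1a lEV against cells ran from -3.73 to -1.30. Of the set of 10, 4 were called higher in KG1a sEV against cells.

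Depth was enough to detect most entries. In 28 of the 38 libraries all 199 had a count, and 121 entries had a count in every library. The gaps lay in vesicles and mostly in rPAL libraries, with the fewest entries, 163, in HL60 sEV rPAL replicate 2, and 164 in KG1a sEV rPAL replicate 3. An entry can reach the lower bound through a single group in which it is high. Counts of changed entries and fold changes of single entries below therefore describe the selection and do not stand as evidence for it. The upper bound used the same summed counts, so contrasts with abundant tRNA entries are not independent of the rule either.

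The share of a library that lay on these entries was largest after rPAL in cells. In HL60 cells it was 1.86% ± 0.278 (SD, n = 3) of counts in total RNA and 6.31% ± 1.78 (SD, n = 3) after rPAL. In KG1a cells it was 1.39% ± 0.516 in total RNA and 4.52% ± 1.30 after rPAL (SD, n = 4 each). In both lines the lowest rPAL library, at 4.75% in HL60 and 3.35% in KG1a, lay above the highest total RNA library, at 2.10% and 2.01%. KG1a vesicles were more spread: lEV held 1.45% ± 0.251 in total RNA and 2.98% ± 2.15 after rPAL, and sEV 0.865% ± 0.0204 and 1.51% ± 0.900 (SD, n = 3 each). The rPAL library of replicate 3 was the lowest in both KG1a vesicle groups, at 0.925% in lEV and 0.484% in sEV, below every total RNA library of its source. HL60 vesicles held less after rPAL, 0.704% ± 0.154 against 1.15% ± 0.204 in lEV and 0.572% ± 0.155 against 1.22% ± 0.360 in sEV (SD, n = 3 each), and in neither source did the libraries overlap. These shares were given no test, since summed counts chose the entries.

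**Figure D1:**
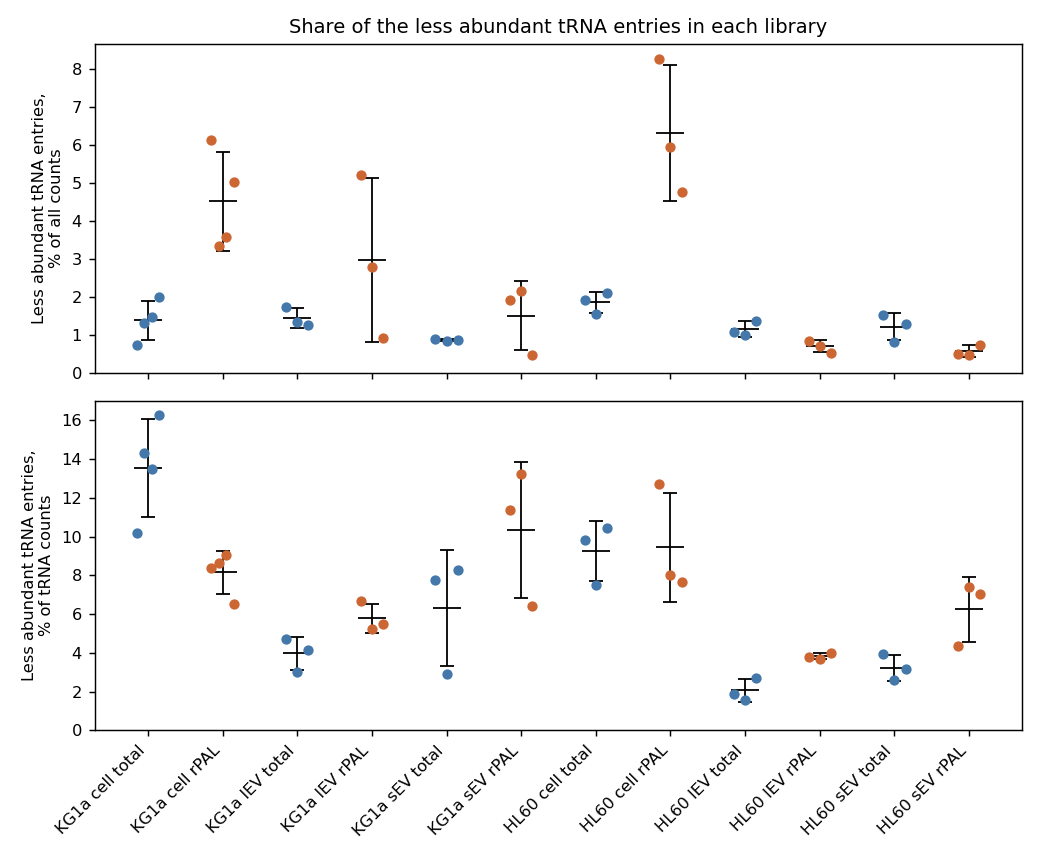
Share of the 199 less abundant tRNA entries in each library (points; blue, total RNA; orange, rPAL) as a percentage of all counts (top) and of tRNA counts (bottom), with the mean and SD of each group. The top panel is highest in HL60 and KG1a cell rPAL (means 6.31% and 4.52%), whereas in the bottom panel rPAL is lower than total RNA in KG1a cells (8.15% against 13.6%) and higher than total RNA in HL60 lEV (3.82% against 2.05%).

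Within the tRNA pool the picture was a different one. Of all tRNA counts, the 199 entries made up 13.6% ± 2.53 in KG1a cell total RNA and 8.15% ± 1.12 after rPAL (SD, n = 4 each), and these libraries did not overlap. In HL60 cells the 2 values were 9.26% ± 1.54 and 9.45% ± 2.81, a difference within the spread. In lEV the share of tRNA counts was higher after rPAL, 5.78% ± 0.758 against 3.97% ± 0.873 in KG1a and 3.82% ± 0.151 against 2.05% ± 0.587 in HL60 (SD, n = 3 each), with no overlap in either line. In sEV it was 10.3% ± 3.50 against 6.31% ± 2.97 in KG1a, where libraries overlapped, and 6.25% ± 1.67 against 3.23% ± 0.667 in HL60, where they did not. The lower share of all counts after rPAL in HL60 vesicles thus stood beside a higher share of tRNA counts. Ribosomal RNA took 54.8% ± 11.5 of counts in HL60 lEV rPAL against 5.83% ± 0.969 in the total RNA, and 50.9% ± 13.6 against 20.7% ± 8.22 in sEV (SD, n = 3 each). With rRNA left out of the total, the entries held 1.60% ± 0.441 in HL60 lEV rPAL and 1.23% ± 0.218 in total RNA, so the order of those 2 groups depends on the denominator. Counts are shares of a library, so fewer copies of an entry and more of other RNA cannot be told apart, nor can less RNA per cell and fewer cells.

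The level of single entries, in read counts scaled to the library total (CPM), spanned a wide range. The median over entries of the group mean was 246.7 CPM in HL60 cell rPAL and 197.2 in KG1a cell rPAL, followed by 107.7 in KG1a lEV rPAL and 49.4 in KG1a sEV rPAL. The total RNA groups lay between 20.02 CPM in HL60 lEV and 40.3 in HL60 cells, and the HL60 vesicle rPAL groups were at 22.2 in lEV and 17.5 in sEV. Of the 199 entries 119 had their highest group mean in HL60 cell rPAL and 23 in KG1a cell rPAL, while 18 peaked in KG1a lEV rPAL and none in the HL60 vesicle rPAL groups. HL60 sEV rPAL was the lowest group for 55 entries and HL60 lEV total RNA for 48. The median ratio of an entry's highest to its lowest group mean was 28.8. Counts were also less concentrated after rPAL in cells: the 10 most counted of the 199 entries in each library held 27.1% ± 3.30 of their counts in HL60 total RNA and 18.4% ± 1.64 after rPAL (SD, n = 3 each), and 22.1% ± 1.07 and 15.7% ± 0.491 in KG1a (SD, n = 4 each).

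**Figure D2:**
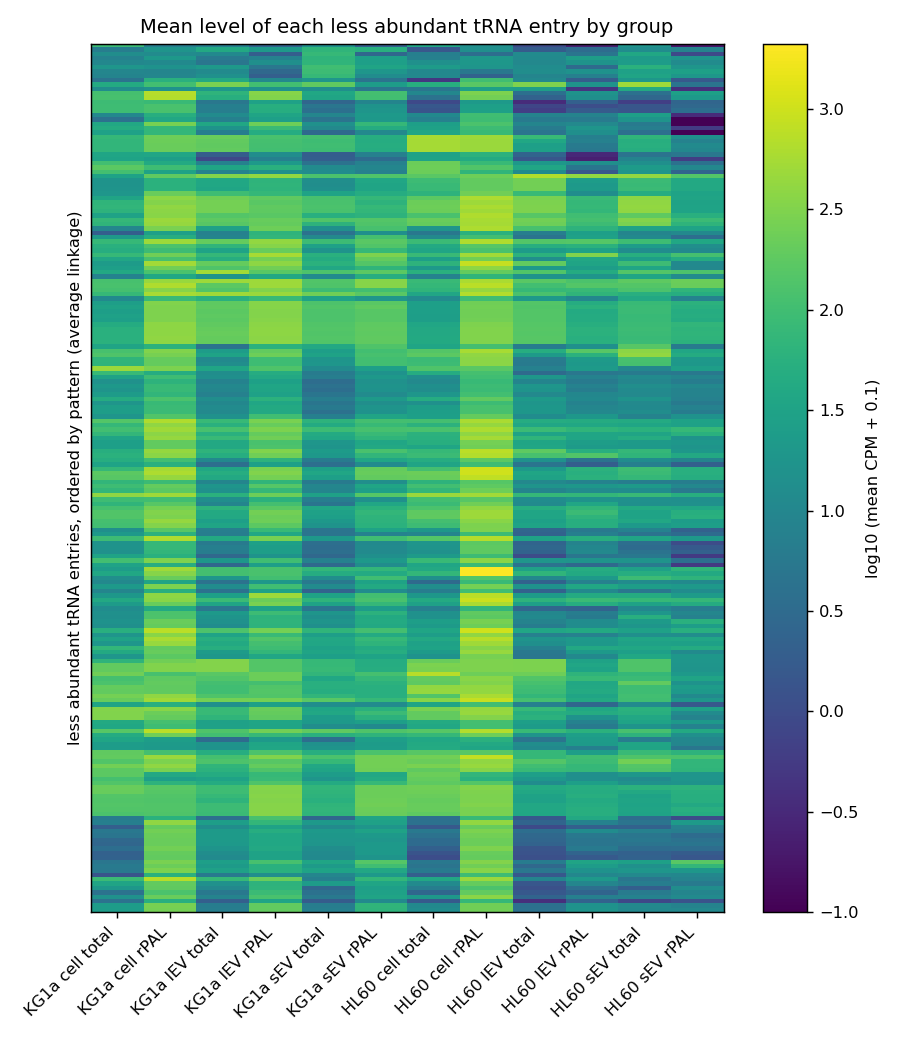
Mean level of each of the 199 entries (rows, ordered by similarity of pattern) in the 12 groups (columns), as log10 of the mean CPM + 0.1. The cell rPAL columns of both lines are brightest, with median levels of 197.2 CPM in KG1a and 246.7 in HL60. Sets of entries at a near-fixed ratio are not marked.

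The first comparison asks which entries are enriched by rPAL in cells. In HL60 cells 143 of the 199 entries rose after rPAL and 7 fell (edgeR quasi-likelihood test, Benjamini-Hochberg adjusted p under 0.05 over all features tested). Over all 6902 features tested, 20.6% were called higher and 18% lower. The median log2 fold change of the entries was 2.06, against 0.04 over all features. In KG1a cells 101 entries rose and 5 fell, where 8.89% of all 6592 features were called higher and 9.86% lower, with a median of 1.79 for the entries and -0.04 for all features. With each near-fixed set counted as 1, the counts were 111 and 7 in HL60 and 73 and 5 in KG1a, of 154. Abundant tRNA entries had a larger median, 2.76 in HL60 and 2.88 in KG1a, with 112 of 146 and 116 of 146 called higher. Rare tRNA entries had medians of 1.98 and 0.82.

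The lines, which share no library, gave similar orders of entries. Of the 101 entries that rose in KG1a cells, 96 also rose in HL60, and none was called in opposite directions. These are 95.0% of the KG1a calls and 67.1% of the HL60 calls. Over all 199 entries 71.9% rose in HL60 and 50.8% in KG1a, so part of the overlap follows from these rates alone. The overlap over all features was not computed. All 5 entries that fell in KG1a were among the 7 that fell in HL60. As a description across the 199 entries, which are not independent, the fold changes in KG1a and HL60 (log2) had a Pearson's r of 0.847 and a Spearman's rho of 0.815.

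**Figure D3:**
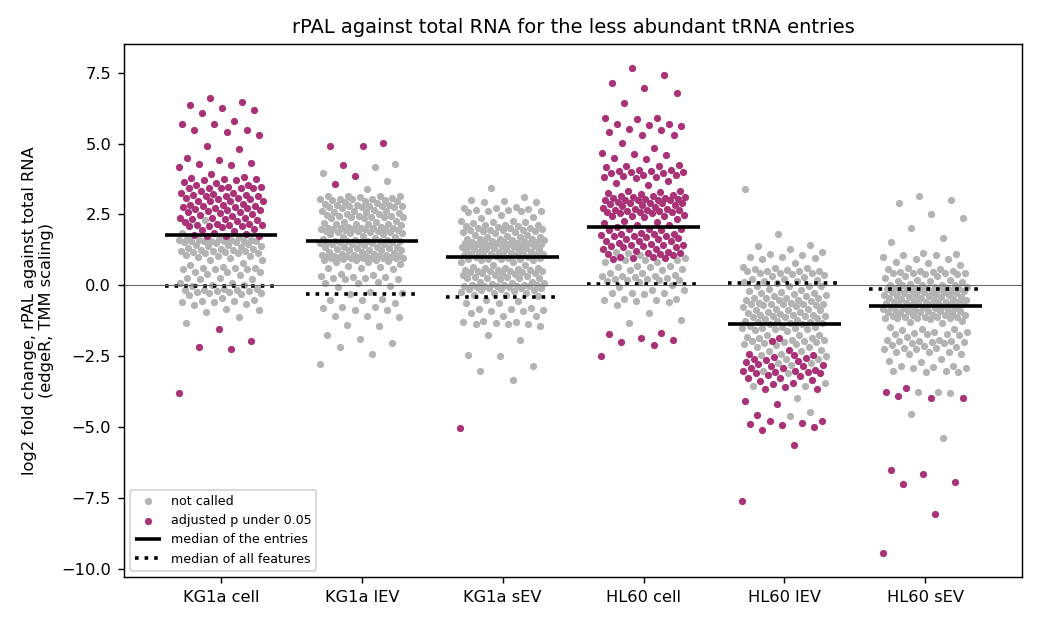
Log2 fold change of rPAL against total RNA (edgeR, TMM scaling) for each less abundant tRNA entry tested, by line and source (points; magenta, adjusted p under 0.05), with the median of the entries (solid) and of all features (dotted). Medians of the entries are 1.79 in KG1a cells and 2.06 in HL60 cells, and -1.38 in HL60 lEV and -0.73 in HL60 sEV, where they become 1.22 and 0.11 when libraries are scaled to their totals without rRNA. With that scaling the medians of all features are 2.63 in HL60 lEV and 0.58 in HL60 sEV.

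A set of 9 entries at a near-fixed ratio rose after rPAL, and all 9 were called in both lines. Its log2 fold changes ran from 5.48 to 7.42 in HL60 cells and from 5.47 to 6.59 in KG1a cells. URS000070227A, of this set, was at 0.428, 0.873 and 1.54 CPM in the 3 HL60 total RNA libraries and at 254, 167 and 174 CPM in the 3 rPAL libraries. In the 4 KG1a libraries it was at 0.580, 3.37, 3.11 and 1.68 CPM in total RNA and at 321, 113, 158 and 166 CPM after rPAL. It was thus almost absent from cell input and near the median of the 199 entries after rPAL. The log2 fold changes by edgeR were 7.42 ± 0.58 (SE, adjusted p = 1.83e-05) in HL60 and 6.37 ± 0.77 (SE, adjusted p = 0.00036) in KG1a. Most of its counts lay in the cell rPAL libraries. It met the lower bound through them, so these values do not stand apart from the selection. In vesicle total RNA the set differed between lines. URS000070227A was at 8.36 to 16.5 CPM in KG1a lEV total RNA and at 0.0732 to 1.92 in HL60 lEV. All 9 entries of the set rose in KG1a lEV against cells and none was called in HL60 lEV against cells, a difference between lines that was not tested.

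URS00006350CD, outside any set, had the largest fold change of HL60 cells. It was at 0.428, 0.201 and 0.559 CPM in total RNA and at 192, 72.9 and 31.6 CPM after rPAL, with a log2 fold change of 7.66 ± 0.84 (SE, adjusted p = 0.00012, edgeR). In KG1a cells it was at 1.30 to 8.29 CPM in total RNA and 16.8 to 122 after rPAL, where the log2 fold change was 3.56 ± 0.83 (SE, adjusted p = 0.0097). The groups did not overlap in either line, but the 3 HL60 rPAL libraries differed among themselves by more than those of the set above.

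Against the trend, a small group of entries fell after rPAL in the cells of both lines. URS0000626F0F was at 217, 151 and 221 CPM in HL60 total RNA and 34.2, 67.6 and 62.0 after rPAL, and at 106, 108, 119 and 120 CPM in KG1a total RNA and 32.1, 24.2, 20.05 and 30.4 after rPAL. Its libraries were tight and did not overlap, and the log2 fold changes were nearly equal, -2.10 ± 0.35 (SE, adjusted p = 0.0014) in HL60 and -2.19 ± 0.49 (SE, adjusted p = 0.0077) in KG1a by edgeR. URS00006E0E1A fell further in KG1a, from 10.5, 80.4, 89.4 and 172 CPM to 7.53, 5.14, 8.51 and 6.57, with a log2 fold change of -3.79 ± 0.76 (SE, adjusted p = 0.0043). Here the spread lay in the total RNA, where replicate 1 was far below the other 3 libraries, while the 4 rPAL libraries lay within 5.14 to 8.51 CPM. Over the 11 alternative fits in HL60 and 13 in KG1a, URS000070227A and URS0000626F0F in both lines, URS00006350CD in HL60 and URS00006E0E1A in KG1a kept their direction and an adjusted p under 0.05.

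**Figure D4:**
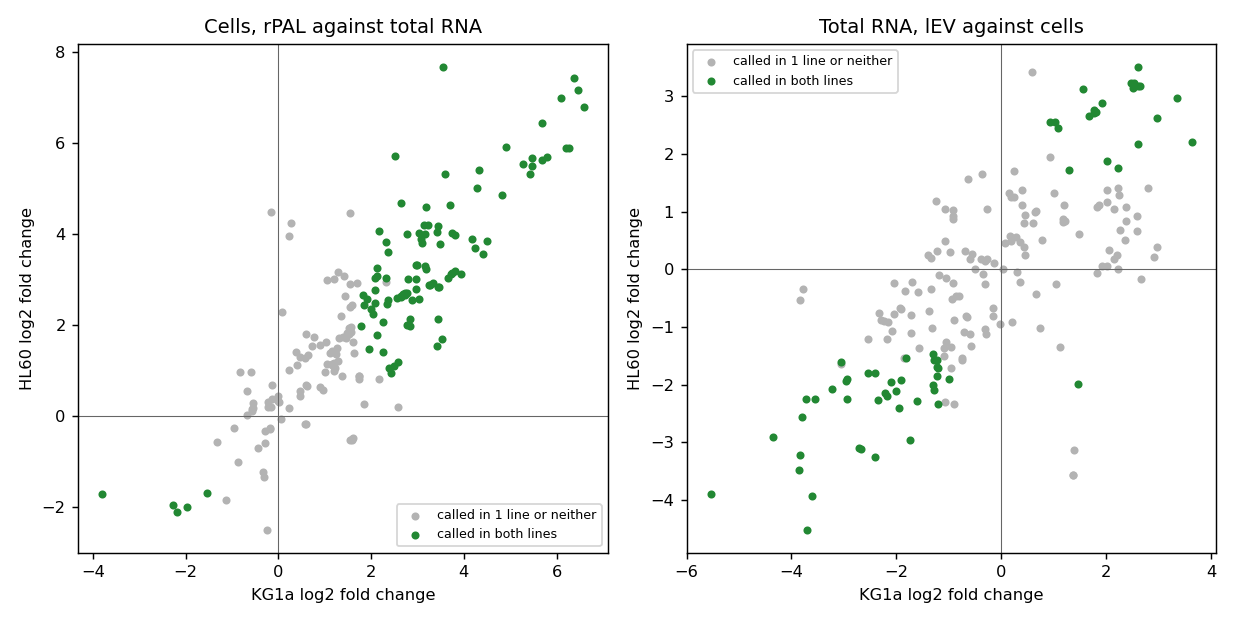
Log2 fold changes of KG1a (x axis) against HL60 (y axis) for each entry, for rPAL against total RNA in cells (left) and for lEV against cells in total RNA (right); green points were called in both lines at an adjusted p under 0.05. In cells 96 entries were called higher in both lines and 5 lower in both, and in lEV against cells 22 and 39.

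Other RNAs of the tRNA pathway moved otherwise in the same comparisons. Of the listed RNA polymerase III and processing RNAs, 20 by name, 7 were tested in KG1a cells, of which 1 rose and 1 fell, and 6 in HL60 cells, of which 1 rose and 4 fell. The riser in both lines was VTRNA1-3, a vault RNA, with log2 fold changes of 2.44 in KG1a and 2.92 in HL60, while RNU6-9, a U6 spliceosomal RNA gene, fell by 2.05 and 3.10 on the log2 scale. RNY4, a Y RNA of the Ro particle, fell by 6.04 in HL60. Of the 22 mitochondrial tRNA genes 21 were tested in each line, with 5 higher and 5 lower in KG1a and 3 higher and 11 lower in HL60, at medians of -0.49 and -2.31. Of 22 mRNAs for tRNA end processing, modification and cleavage, 6 were tested in KG1a and 7 in HL60 cells and none was called.

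In KG1a lEV the comparison of rPAL with total RNA found 6 of 198 tested entries higher and none lower, against 3.16% of 5857 features called higher and 7.07% lower, although the median log2 fold change of the entries was 1.57 against -0.30 over all features. URS00007047C1 was at 6.09, 2.23 and 2.96 CPM in total RNA and 196, 115 and 39.4 after rPAL, with a log2 fold change of 5.004 ± 1.19 (SE, adjusted p = 0.024, edgeR). URS0000702883, 1 of a near-fixed set of entries, was at 10.6, 4.17 and 5.51 CPM in total RNA and 379, 162 and 35.9 after rPAL, with 4.93 ± 1.26 (SE, adjusted p = 0.025). In both entries replicate 3 was the lowest rPAL library and still lay above all total RNA libraries. The calls of these entries were lost in 4 and 6 of 11 other fits. The count of calls also depended on single libraries. Without rPAL replicate 3, 95 entries were called, without rPAL replicate 1 there were 2 and without any 1 of the 3 total RNA libraries 0. A fit without the count filter also called 0, with 19 at an unadjusted p under 0.05.

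In KG1a sEV none of the 199 entries rose and 1 fell, against 0.48% of 8128 features called higher and 6.13% lower, and the edgeR fit gave 11 entries at an unadjusted p under 0.05. The median log2 fold change of the entries was 0.98, against -0.42 over all features, so most entries lay above 0 within a wide spread. The entry that fell, URS0002337AE0, was at 42.4, 29.5 and 167 CPM in total RNA and 1.80, 5.87 and 0.413 after rPAL, with a log2 fold change of -5.03 ± 1.61 (SE, adjusted p = 0.041). This call was lost in 9 of 11 other fits, among them every fit that left out 1 library. Without rPAL replicate 3 the 1 entry called was higher, and DESeq2 called 3 entries higher and 1 lower.

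In HL60 lEV none of 192 tested entries rose and 48 fell after rPAL, against 12.3% of 3219 features called higher and 18.9% lower, but this direction depended on scaling. The median log2 fold change of the entries was -1.38 with TMM scaling, 0.08 with library totals and 1.22 with totals without rRNA, while that of all features went from 0.08 to 1.52 and 2.63. Relative to the median of all features the entries were at -1.46, -1.44 and -1.41 under these scalings, but at 0.56 without the count filter and -0.28 with the replicate number as a block. Leaving out rPAL replicate 2 or 3 took this value to -0.73 or -0.18, and leaving out total RNA replicate 2 or 3 took it to -2.25 or -2.79. The calls became 1 higher and 11 lower with library totals, and 4 and 4 without rRNA. Without lEV total RNA replicate 1, 2 or 3 the count of calls was 15, 7 or 13. Abundant tRNA entries were lower by more with TMM scaling, 73 of 146 with a median of -1.86.

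Among the HL60 lEV entries 2 stood far below their input under every scaling. URS0000644222 was at 444, 232 and 228 CPM in total RNA and 15.2, 15.3 and 19.1 after rPAL, with a log2 fold change of -5.65 ± 0.70 (SE, adjusted p = 0.0044, edgeR) that ran from -6.24 to -3.06 over 11 other fits. URS0000684E4B was at 37.9, 25.5 and 14.9 CPM in total RNA and 0.635, 0.231 and 0.201 after rPAL, with -7.63 ± 1.12 (SE, adjusted p = 0.0061) and a range of -8.88 to -5.04. Each rPAL library of both entries lay more than 10-fold below each total RNA library. At depths of 4325249 to 4975032 counts, however, the rPAL values of URS0000684E4B lie near the floor, so the size of its fold change is uncertain.

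In HL60 sEV none of 191 tested entries rose and 11 fell, against 2.51% of 3619 features called higher and 16.3% lower. The median of the entries was -0.73 with TMM scaling and 0.11 with totals without rRNA, and that of all features -0.12 and 0.58. Relative to all features the entries were at -0.61 and -0.47 under these scalings. This value was 0.02 without the count filter, 0.10 with the replicate number as a block and 0.13 without rPAL replicate 2. URS0000644222 was at 639, 275 and 530 CPM in total RNA and 3.79, 9.75 and 0 after rPAL, with a log2 fold change of -6.53 ± 1.55 (SE, adjusted p = 0.029, edgeR), and this call held in all 11 other fits. Under the naming rule given below, 2 entries ranked before it, with log2 fold changes of -6.96 and -6.65. Their calls were lost in 6 and 9 of 11 other fits. Of the 199 entries 3 had no count in any HL60 sEV rPAL library. For URS0000530C88 the total RNA libraries were at 32.6, 5.15 and 13.5 CPM, so rPAL was at least 55.3-fold lower than their mean, with a floor of 3 counts over the 3 rPAL libraries. The count of calls was 1 without rPAL replicate 2, 4 without replicate 1 and 6 without replicate 3, and 5 and 2 without total RNA replicates 1 and 3.

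**Figure D5:**
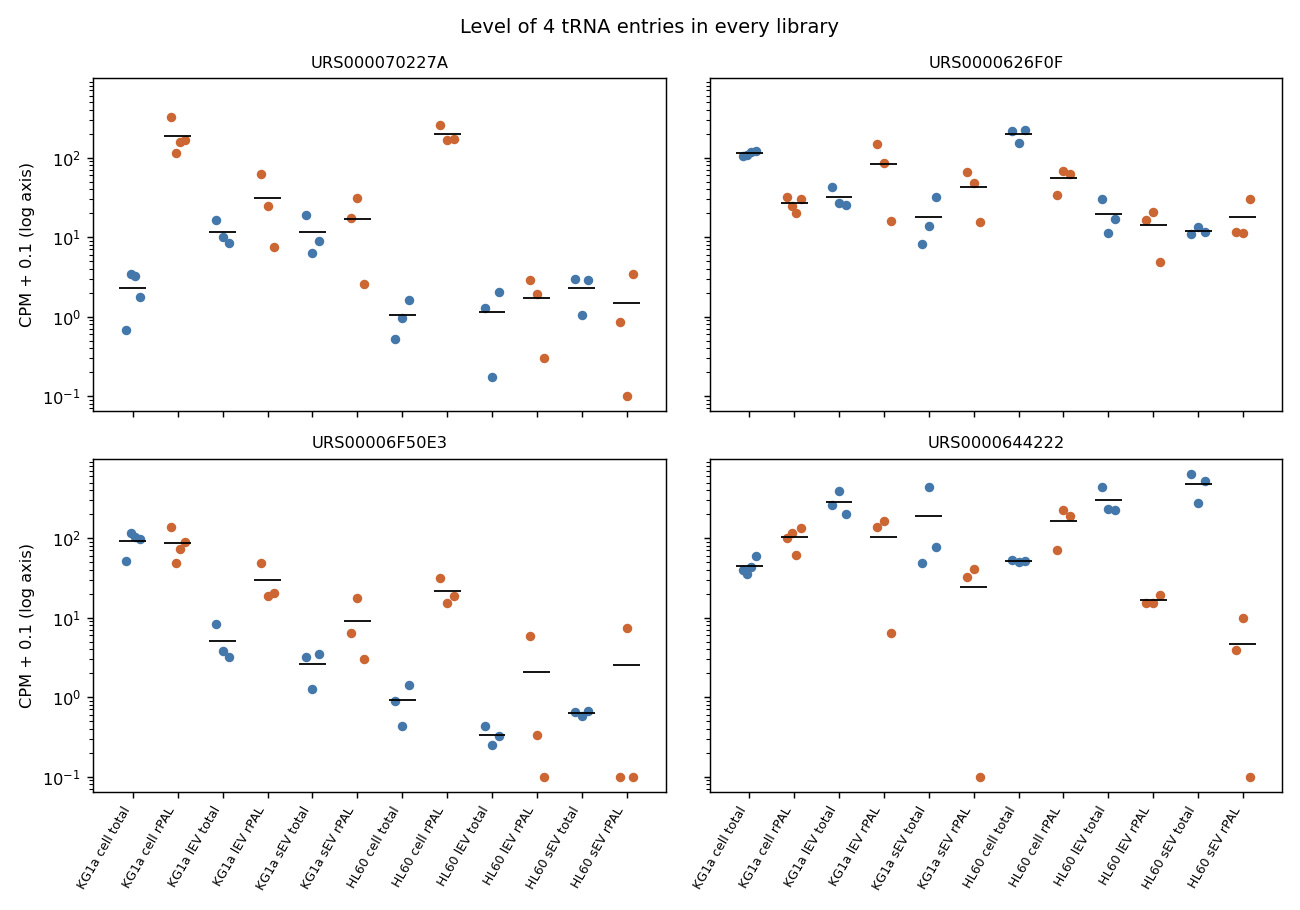
CPM + 0.1 (log axis) of 4 entries in every library (points; blue, total RNA; orange, rPAL; bars, group means of the values shown). URS000070227A is at 167 CPM or more after rPAL in HL60 cells and under 2 CPM in their total RNA, URS0000626F0F runs the other way in cells, URS00006F50E3 is near 0.8 CPM in HL60 cell total RNA and near 92.8 in KG1a, and URS0000644222 is high in HL60 vesicle total RNA and low after rPAL.

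Whether enrichment differs between vesicles and cells of HL60 was tested as a difference of differences. The rPAL effect was lower in lEV than in cells for 98 of the 199 entries and higher for none, against 11.4% of 8458 features called lower and 1.34% higher. The median difference was -3.36 on the log2 scale, and -0.79 over all features. For sEV against cells the counts were 104 lower and none higher, against 12.8% of 8107 features lower and 0.469% higher, with medians of -3.66 and -1.53. Both differences use the same HL60 cell libraries. In abundant tRNA entries the medians were close to these, -3.45 and -4.06, with 109 and 126 of 146 called lower. With library totals 58 and 78 entries were called lower, and with totals without rRNA 22 and 13, and none higher in any of these. Relative to all features the medians of the entries were -2.57, -2.64 and -2.50 in lEV and -2.14, -2.15 and -1.95 in sEV under the 3 scalings. Without lEV rPAL replicate 2 or 3 the lEV value was -1.65 or -1.69, and without sEV rPAL replicate 1 or 2 the sEV value was -1.23 or -1.03. Leaving out any 1 HL60 cell total RNA library lowered the lEV count to 33 to 38, and leaving out lEV total RNA replicate 3 to 59. The sEV count was 26 to 69 without any 1 of 9 libraries, which are the 6 cell libraries, sEV rPAL replicate 2 and sEV total RNA replicates 1 and 3.

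URS00006350CD shows this difference in single libraries. In HL60 lEV it was at 10.6, 0.439 and 22.7 CPM in total RNA and 5.29, 0 and 0 after rPAL, and in sEV at 14.6, 2.88 and 39.4 and at 4.55, 0 and 0. It was called lower in both differences, with adjusted p = 0.010 for lEV and 0.0035 for sEV by edgeR. The direction of rPAL in vesicles was the opposite of that in cells, but the vesicle rPAL values rest on 1 library each, and within vesicles the rPAL effect of this entry was not called, at adjusted p = 0.22 in lEV and 0.32 in sEV.

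The same test between lines, HL60 minus KG1a, was added after the data were seen. In lEV none of the 199 entries was called by edgeR, against 0% of 7871 features higher and 0% lower, with a median difference of -3.07 (-0.75 over all features) and 93 entries at an unadjusted p under 0.05. DESeq2 called 16 lower, and without KG1a lEV rPAL replicate 3 edgeR called 64. In sEV 1 entry was called lower and none higher, against 0.402% of 9700 features lower and 0.0206% higher, with a median of -2.40 (-1.10 over all features). That entry was URS0000530C88, at 12.3, 21.2 and 26.0 CPM in KG1a sEV rPAL and 0 in all 3 HL60 libraries, with adjusted p = 0.0499. Leaving out any 1 of 10 of the 12 libraries, all except KG1a sEV rPAL replicate 3 and HL60 sEV rPAL replicate 1, ended this call.

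Total RNA of vesicles against cells shows which entries lie in vesicles irrespective of rPAL. In KG1a lEV 55 entries were higher and 70 lower than in cells, against 23.8% of 7780 features higher and 28.5% lower, with a median log2 difference of -0.50 (-0.01 over all features). The split of higher against lower depended on scaling, at 57 and 63 with library totals and 63 and 53 with totals without rRNA. It was 64 and 51 without cell replicate 4, 57 and 56 without lEV replicate 3 and 58 and 56 with the replicate number as a block. In HL60 lEV 25 of 197 entries were higher and 47 lower, against 12.1% of 6527 features higher and 15.2% lower, with a median of -0.17 (0.16 over all features), and 17 and 72 with library totals and 15 and 81 without rRNA. With TMM scaling, abundant tRNA entries ran the other way in both lines. In KG1a 72 were higher and 17 lower, and in HL60 64 were higher and 9 lower, at medians of 0.91 and 1.09. This contrast between less abundant and abundant entries was not tested, and the bound between them was drawn on counts that include these libraries. Without HL60 cell total RNA replicate 1 or 3 the HL60 count of calls was 39 or 40.

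The set of 10 entries, the largest at a near-fixed ratio, was higher in lEV in both lines. All 10 rose, with log2 differences of 1.67 to 2.64 in KG1a and 2.66 to 3.23 in HL60. Its most counted entry, URS0002349012, was at 55.7 ± 16.8 CPM (SD, n = 4) in KG1a cells and 203.7 ± 47.0 (SD, n = 3) in lEV, and at 40.5 ± 3.72 and 157.5 ± 38.6 CPM (SD, n = 3 each) in HL60. URS0000753215 was at 25.4, 33.0, 41.6 and 25.3 CPM in KG1a cells and 249, 501 and 253 in lEV, with a log2 difference of 3.35 ± 0.39 (SE, adjusted p = 9.38e-06, edgeR). In HL60 it was at 157, 185 and 151 CPM in cells and 583, 908 and 535 in lEV, with 2.97 ± 0.59 (SE, adjusted p = 0.0031). The groups did not overlap in either line. URS0000644222, low after rPAL in HL60 lEV, was at 52.4, 49.6 and 50.9 CPM in HL60 cells and so rose in lEV total RNA by a log2 difference of 3.50 ± 0.61 (SE, adjusted p = 0.0017). This rise and that fall share the lEV total RNA libraries.

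Of the entries lower in lEV, URS00006B9174 was at 8.55, 24.0, 30.7 and 64.8 CPM in KG1a cells and 0.554, 0.928 and 0.714 in lEV, with a log2 difference of -5.54 ± 0.69 (SE, adjusted p = 1.52e-05, edgeR). In HL60 it was at 34.0, 24.0 and 37.3 CPM in cells and 0.755, 0.732 and 2.52 in lEV. URS00006E0E1A, which fell after rPAL in cells, was also lower in lEV of both lines, at 29.4, 20.8 and 56.1 CPM in HL60 cells and 1.34, 0.219 and 1.04 in lEV, with -4.52 ± 0.71 (SE, adjusted p = 0.0010). Of the calls in lEV against cells, 22 higher and 39 lower were shared by both lines, and 1 entry was called in opposite directions. The shared calls are 40.0% and 55.7% of the KG1a calls and 88.0% and 83.0% of the HL60 calls. Over all entries tested, 27.6% were called higher and 35.2% lower in KG1a, and 12.7% and 23.9% in HL60.

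In sEV, compared with the same cell libraries, more entries were called lower than higher in both lines. In KG1a 16 were higher and 116 lower, against 23% of 8725 features higher and 22.1% lower, with a median log2 difference of -1.99 (0.22 over all features). With library totals 39 were higher and 87 lower, and with totals without rRNA 48 and 71. In HL60 17 of 198 were higher and 63 lower, against 13.9% of 7555 features higher and 12.8% lower, with a median of -0.60 (0.16 over all features), and 22 and 57 with library totals and 29 and 57 without rRNA. Of the lower calls 59 were shared, 50.9% of the KG1a calls and 93.7% of the HL60 calls. Over all entries tested, 58.3% were called lower in KG1a and 31.8% in HL60. Without HL60 cell total RNA replicate 1, 2 or 3 the HL60 count of calls was 49, 46 or 50.

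URS00007142C3 was at 175, 514, 469 and 713 CPM in KG1a cells, where it had the highest mean of the 199 entries, and at 6.43, 14.0 and 16.1 in sEV, with a log2 difference of -6.36 ± 0.66 (SE, adjusted p = 0.00012, edgeR). URS0000626F0F was at 10.7, 13.4 and 11.3 CPM in HL60 sEV against 217, 151 and 221 in cells, with -4.28 ± 0.37 (SE, adjusted p = 0.00068). Both were lower in every sEV library than in any cell library of their line. The set of 6 entries behaved alike, with all 6 lower in sEV in both lines at log2 differences of -2.72 to -2.03 in KG1a and -3.02 to -2.69 in HL60, and none called after rPAL in cells. Of the entries higher in KG1a sEV, URS00023393C0 went from 2.03, 7.73, 13.5 and 3.53 CPM in cells to 73.9, 33.2 and 96.9 in sEV, with 2.24 ± 0.56 (SE, adjusted p = 0.0069).

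Of the other RNAs in these comparisons, RNY4 was higher in lEV than in cells by log2 differences of 4.44 in KG1a and 4.57 in HL60. Of the mitochondrial tRNA genes 2 were higher and 13 lower in KG1a lEV, and none higher and 5 lower in HL60 lEV, of 21 tested in each line. In sEV none was higher and 18 of 19 were lower in KG1a, and 19 of 21 in HL60, with medians of -3.64 and -5.12.

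Between the lines, total RNA of cells held 35 of the 199 entries at a higher level in HL60 and 19 at a lower level, against 18.4% of 8655 features higher and 21.5% lower, with a median log2 difference of 0.19 (-0.01 over all features). Most entries, 145, were not called. URS00006F50E3 was at 51.7, 117, 104 and 98.6 CPM in KG1a cells and 0.785, 0.336 and 1.33 in HL60 cells, with a log2 difference of -6.73 ± 0.46 (SE, adjusted p = 8.39e-10, edgeR). URS00006E998F, of a near-fixed set of 2, was at 53.8, 119, 105 and 101 CPM in KG1a and 1.28, 0.739 and 1.68 in HL60. Its log2 difference was -6.16 ± 0.41 (SE, adjusted p = 5.92e-10, edgeR). URS00006F50E3 is in no set, but its log2 ratio to its nearest member had an SD of 0.244, close to the bound of 0.2. The 2 entries ran alike over the KG1a cell libraries and may not be separate measurements. Both were abundant in every KG1a cell library and close to absent in HL60 cell total RNA. After rPAL URS00006F50E3 was at 31.7, 15.1 and 18.4 CPM in HL60 cells and 137, 47.8, 72.7 and 88.3 in KG1a cells, so the lines lay nearer to each other than in total RNA.

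On the HL60 side, URS0000677EA0, of a set of 3 entries, was at 248, 469 and 925 CPM in HL60 cells and 23.6, 70.4, 83.0 and 98.3 in KG1a cells, with a log2 difference of 3.10 ± 0.47 (SE, adjusted p = 0.00015, edgeR). The HL60 libraries were widely spread and still did not reach down to KG1a. KG1a cell total RNA replicate 1, where the 199 entries held only 0.752% of counts, bears on these totals: without it 30 entries were higher and 35 lower and the median was -0.07, and without replicate 4, the library with the largest share, the counts were 69 and 19. Of the 146 abundant tRNA entries 62 were called higher in HL60 and 8 lower, and the difference from the 199 entries was not tested.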

How the data were processed

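Small RNA of KG1a and HL60 cells, lEV and sEV was sequenced as total and rPAL RNA in 38 libraries. The authors deposited raw read counts per feature, which the submitters' processing notes tie to Bowtie2 and GRCh38 (hg38). Versions, annotation, counting program and the treatment of reads with several hits are not given in the sources used here. All columns matched a labelled sample.

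Each comparison was fitted on all features of its groups with edgeR 4.0.16 in R 4.3.3 (TMM scaling, filterByExpr, quasi-likelihood test with robust dispersion) and adjusted by Benjamini-Hochberg over all features tested, with calls at an adjusted p under 0.05. The scripts were tested on simulated data for rPAL against total RNA in KG1a cells and HL60 lEV, and for the HL60 lEV difference. Of true log2 changes of 2, 0% were recovered in each. Of changes of 4, 82.4%, 14.3% and 12.5% were recovered in that order, and of changes of 8, 100%, 93.2% and 72.8%. An entry that was not called may therefore still differ. Whether these recovery rates hold for the 199 entries was not tested. In KG1a cells after rPAL, all 3 entries of 1 near-fixed set were called higher at log2 fold changes of 1.73 to 1.74. In another set, at 1.55 to 1.62, 0 of 3 were called. Fold changes follow TMM scaling and CPM follow library totals, so their ratios can differ. Levels are reads per entry, without correction for length. Shares were computed in Python 3.11.15 with pandas 2.3.3. GENCODE release 29 gave 0 symbols for the 199 entries. The near-fixed-ratio sets used a pseudocount of 1 and were defined after seeing the data.

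Named entries have the largest and smallest log2 fold changes among calls whose groups do not overlap and whose higher group averages 20 CPM or more, at most 2 per direction and comparison. Their values in other comparisons, the most counted entry of a set, URS0000530C88 in HL60 sEV and URS00006B9174 in HL60 were chosen for naming with their values known. The members and lists were chosen with earlier results of these data known. Alternatives were other bounds, scalings, no filter, DESeq2 1.42.0, a replicate block and leaving out each library.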

Additional observations from a re-analysis of the deposited data

Results flagged for a closer look

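In KG1a cell total RNA 1 library lay apart from the other 3 for URS0002337AE0: 3 libraries were at 10.7, 11.4 and 12 CPM and replicate 3 at 18.2 CPM, and the gap below the highest was 0.8291 of the group's range. Of 68 groups of values tested in this way 1 stood out, where chance gives about 1 in 20. All came from KG1a cell total and rPAL RNA, since groups with n = 3 were too small and were not tested.

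The rPAL effect differed between HL60 vesicles and cells for 98 of the 199 entries in lEV and for 104 in sEV, all of them lower in vesicles. The fitted differences of the named entries were -10.96 for URS00006350CD and -9.58 for URS0000684E4B in lEV, and -13.07 for URS0000530C88 and -12.10 for URS00006350CD in sEV. Between the lines the sEV effect differed for 1 entry, URS0000530C88, with a fitted difference of -12.12. These values rest on rPAL libraries at or near 0, so they depend on the prior count of the fit and give no bound. HL60 sEV rPAL held no count of URS0000530C88.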

How the results depend on the processing

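Directions and counts in the cells of both lines held under every alternative: calls after rPAL ranged from 116 to 148 in HL60 and from 77 to 111 in KG1a on leaving out single libraries. Ranges on leaving out 1 library were 0 to 95 in KG1a lEV, 0 to 1 in KG1a sEV, 7 to 66 in HL60 lEV and 1 to 8 in HL60 sEV after rPAL; 107 to 132 and 115 to 131 in KG1a lEV and sEV, and 39 to 100 and 46 to 98 in HL60 lEV and sEV, against cells; 41 to 88 between lines; 33 to 123 and 26 to 124 for the HL60 lEV and sEV differences, and 0 to 64 and 0 to 1 for those between lines. The line median ran from -0.0707, with 65 calls, without KG1a cell total RNA replicate 1 to 0.488 without replicate 4, and the majority of KG1a lEV calls against cells turned higher without cell replicate 4 (115 calls) or lEV replicate 3 (113). With library totals there were 12 calls in HL60 lEV (median 0.0824), 58 for the HL60 lEV difference and 0 between lines in sEV. With totals without rRNA there were 18 in KG1a lEV, 0 in KG1a sEV, 8 in HL60 lEV (median 1.22), 4 in HL60 sEV (median 0.11), 116 in KG1a lEV against cells with more higher than lower, 22 and 13 for the HL60 lEV and sEV differences and 0 between lines in sEV. The medians over all features in HL60 lEV were 1.52 with library totals and 2.63 without rRNA, and in HL60 sEV 0.58 without rRNA. With no count filter there were 0 calls in KG1a lEV and sEV, 13 and 1 in HL60 lEV and sEV, 59 and 53 for the HL60 differences and 0 between lines in sEV. DESeq2 gave 22 in KG1a lEV, 4 in KG1a sEV with more higher than lower, 80 and 33 in HL60 lEV and sEV, 54 for the HL60 sEV difference, and 16 and 7 between lines in lEV and sEV. With a lower bound of 10000 counts, KG1a sEV had 0 calls, HL60 sEV 7 and sEV between lines 0. With the replicate number as a block, calls were 1 in KG1a lEV, 0 in KG1a sEV and 7 in HL60 sEV. The same block gave 114 in KG1a lEV against cells, with more higher than lower, and 94 between lines. In no comparison did every pair of same-numbered libraries correlate above 0.1. With so few libraries in a group, this cannot decide whether the numbers pair the libraries. The causes were not tested.

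Shares of tRNA counts were 13.6% and 8.15% in KG1a cell total and rPAL RNA, 3.97% and 5.78% in lEV and 6.31% and 10.3% in sEV, and 9.26%, 9.45%, 2.05%, 3.82%, 3.23% and 6.25% in the same order in HL60. Of counts that are not rRNA the shares were 2.16% in HL60 cell total, 1.60% in HL60 lEV rPAL, 1.26% in HL60 sEV rPAL, 1.81% in KG1a lEV total, 4.09% in KG1a sEV rPAL and 1.34% in KG1a sEV total RNA. With the lower bound at 10000, the share of all counts in KG1a sEV total RNA was 0.793%, against 0.865%.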
